A study of Mus musculus with 35 samples.

Results

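The hnRNP and SR splicing factor genes were followed in the hippocampal mRNA of mice after pilocarpine-induced status epilepticus (SE). Members were the protein-coding genes of the count table whose mouse symbol begins with Hnrnp, Hnrp or Srsf and a digit, pseudogenes left out. The rule found 31 genes among 43629 identifiers, of which 20914 are protein-coding in the annotation, and they comprise 20 hnRNP genes and 11 SR genes. All animals were C57BL/6J mice of both sexes, aged 6 to 7 weeks, and all received scopolamine to limit peripheral cholinergic effects. SE mice were then injected with pilocarpine at 350 mg/kg, with further doses until seizures set in, and control mice with saline vehicle. The groups were 1h control (n = 2) and 1h SE (n = 3), 8h control (n = 3) and 8h SE (n = 2), and 36-120h control (n = 3), which served both 36h SE (n = 3) and 120h SE (n = 3). Each of the 19 libraries came from the polyadenylated RNA of 1 left hippocampus, which is a mixture of cell types.

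Heterogeneous nuclear ribonucleoproteins (hnRNPs) coat nascent transcripts and often hold splice sites back, whereas SR proteins, named for a domain rich in serine and arginine, bind exonic enhancers and recruit the spliceosome. The balance between both families sets the inclusion of many alternative exons, and several members also act in mRNA export, stability and localization. SR proteins are regulated by phosphorylation, mainly by the Srpk and Clk kinases, and many of the genes hold ultraconserved exons that lead to decay of their own transcript. In neurons, activity is known to alter splicing of channel and adhesion molecule genes. Read counts per gene, as analysed here, report the amount of a gene's RNA and not its isoforms, protein or phosphorylation.

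Total counts ranged from 8503816 to 28465548 per library, with both extremes in the 8h SE group, and no pair of replicates agreed within sampling noise. The 6 neuron markers, Prox1 and Camk2a among them, were present in each library and summed to 7767 to 14228 CPM (counts scaled to a common library size). The libraries came from 4 batches named in the labels. At 1 h each group held libraries of batches G369 and G511, at 8 h control replicate 1 was of batch G511 and the other 4 libraries of batch G317, and at 36 h and 120 h all libraries were of batch G545. The 10 choroid plexus markers, such as Ttr and Otx2, summed to 7274 and 5749.8 CPM in 36h SE replicates 1 and 2 and to 54.9 CPM in replicate 3, with 1 marker at 0. They summed to 6554 CPM in 120h SE replicate 3, and to 58.5 and 65.2 CPM in replicates 1 and 2. Xist was above 10 CPM in 7 libraries, 2 of the 36-120h control mice and none of the 36h SE mice among them.

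Counts of all 31 members were first set side by side as levels. Together they took between 3820 and 4617 CPM of a library, on library sizes normalized by TMM. To compare genes with each other, levels were divided by exon length in kilobases and given as RPKM. Exon length joined the exons of all annotated transcripts of a gene, and the order and medians below depend on that choice. For Srsf5 it was 3988 bases, while its longest coding transcript has 1568 bases. For Hnrnpa1 both lengths were close, at 1126 and 1122 bases. Hnrnpa1, a repressor of many exons, stood first with 132 ± 9.13 RPKM (SD, n = 8 control libraries). Hnrnpa2b1, which also carries mRNA into dendrites, reached 120 ± 9.36 RPKM, and Hnrnpk, a poly(C)-binding protein, 108 ± 7.46 RPKM. The control ranges of Hnrnpa1 and Hnrnpa2b1 overlapped, as did those of Hnrnpa2b1 and Hnrnpk, while those of Hnrnpa1 and Hnrnpk did not. None of them reached down to that of the next gene, Srsf5, at 69.1 ± 10.6 RPKM. From Srsf5 downward each gene overlapped its neighbour in the order as far as Hnrnpf, a protein of G-rich elements, at 6.31 ± 1.46 RPKM. The median over the genes was 30.9 RPKM for 20 hnRNP genes and 27.0 RPKM for 10 SR genes without Srsf1.

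Srsf1, the founding SR protein, was close to 0 in the table. It had 0 to 8 counts in 18 libraries and 59 counts in 8h SE replicate 2, the deepest library, with a median of 2 counts, and 0.0323 ± 0.0199 RPKM over the controls. It was therefore the 1 member that did not pass the filter on low counts in any comparison, and it is left out of every test that uses the filter. The gene lies on chromosome 11 from 87860875 to 87867257 (NCBIM37, plus strand), where the annotation places Gm11508 on the opposite strand, and Gm11508 had at most 1 count in any library. Whether the counting step lost the reads of Srsf1 was not tested, and no level of the gene is read from these counts.

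**Figure D1:**
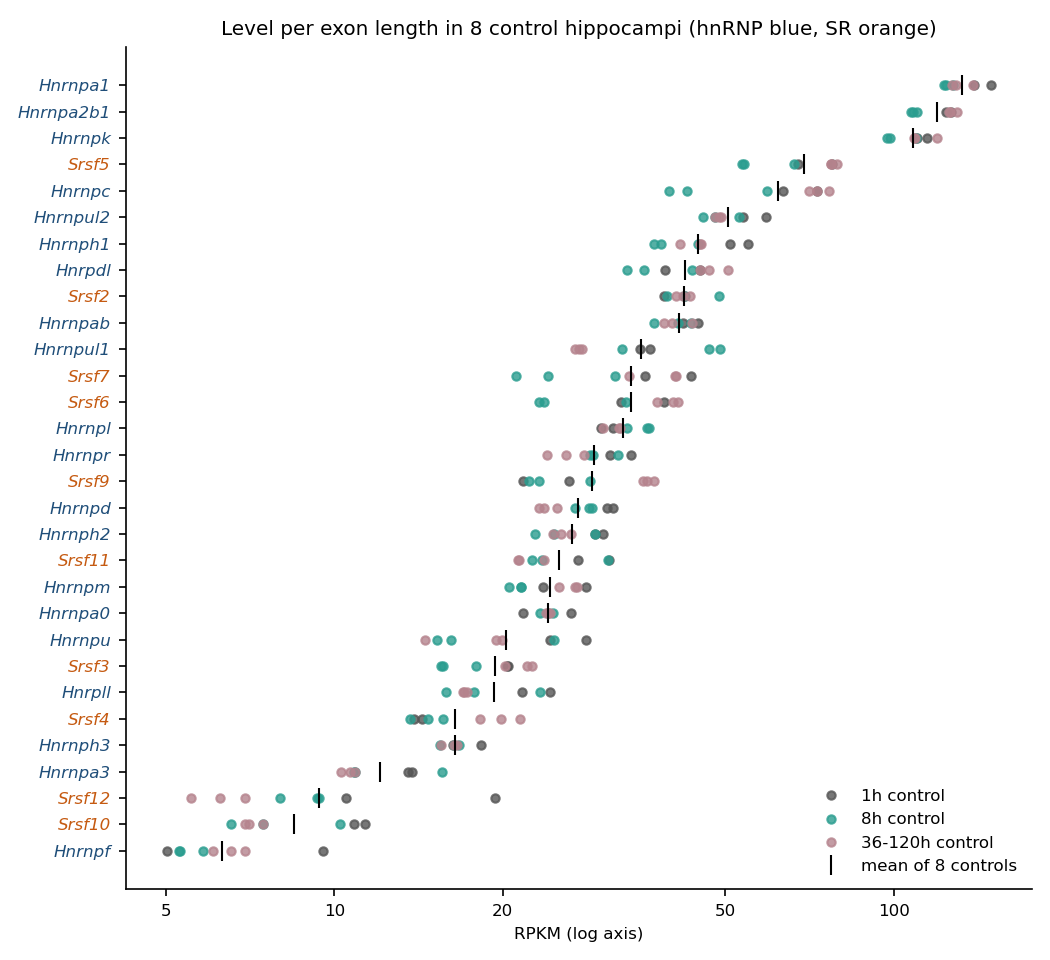
Level of 30 members in 8 control hippocampi, in RPKM on a log axis, with 1 point per library coloured by control group and a black bar at the mean of the 8 libraries. Hnrnpa1, Hnrnpa2b1 and Hnrnpk lie at 97.2 RPKM or above in each library, and Srsf1, near 0, is not drawn.

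Reads of some members can be shared with near-identical copies. The longest coding transcript of 9 of 31 members matched at least 1 other place of the NCBIM37 genome over 300 bases or more at 95% identity or higher. Hnrnpa3 matched 23 other places, Hnrnpf 6, Srsf3 3, and Hnrnpa1 and Hnrnpk 2 each. For Hnrnpa1 these copies covered the whole transcript, so its level and that of Hnrnpa3 (99.9% covered) depend on how shared reads were counted. Hnrnpa0, Srsf6, Srsf7, Hnrpll and Hnrnpul1, on which the results at 8 h turn, had no such copy and no overlapping gene in the annotation. Across the 8 control libraries the highest CPM of a member was 1.18 to 3.49 times its lowest, with a median of 1.47 over 30 members. The controls differ in time and batch, which coincide only in part, and that spread mixes both.

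SE was then compared with control at each time by edgeR's quasi-likelihood test, with p values adjusted by Benjamini-Hochberg over the whole table and called under 0.05. None of the 30 members tested passed at any of the 4 times. Among all genes, 0.0799% passed at 1 h (13 of 16264), 0% at 8 h (none of 15610), 0.0252% (4 of 15850) at 36 h, and at 120 h 0.0563% (9 of 15996). At an unadjusted p under 0.05 stood 2, 4, 0 and 4 members at the 4 times in that order, beside 4.39%, 9.47%, 7.89% and 9.6% of all genes. The median log2 fold change of the members was -0.031, 0.036, 0.0049 and 0.019 in the same order, and that of all genes -0.0023, -0.0087, 0.0065 and 0.011. Within 0.2 of 0 on the log2 scale lay 24 members at 1 h, 19 at 8 h and all 30 at 36 h and at 120 h, against 62.5%, 43.1%, 71.2% and 74% of all genes. The likelihood ratio test and DESeq2 called no member at 1 h, 36 h or 120 h, and each called 1 member, Hnrnpa0, at 8 h. Summed over the 4 times, 0.563% of the tests of all genes passed in the likelihood ratio test (359 of 63720). In the test as reported it was 0.0408% (26 of 63720). In DESeq2 0.609% of all genes passed at 8 h, and its share at the other times is not given here. Here and below, fewer cells of a type and less RNA per cell cannot be told apart.

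**Figure D2:**
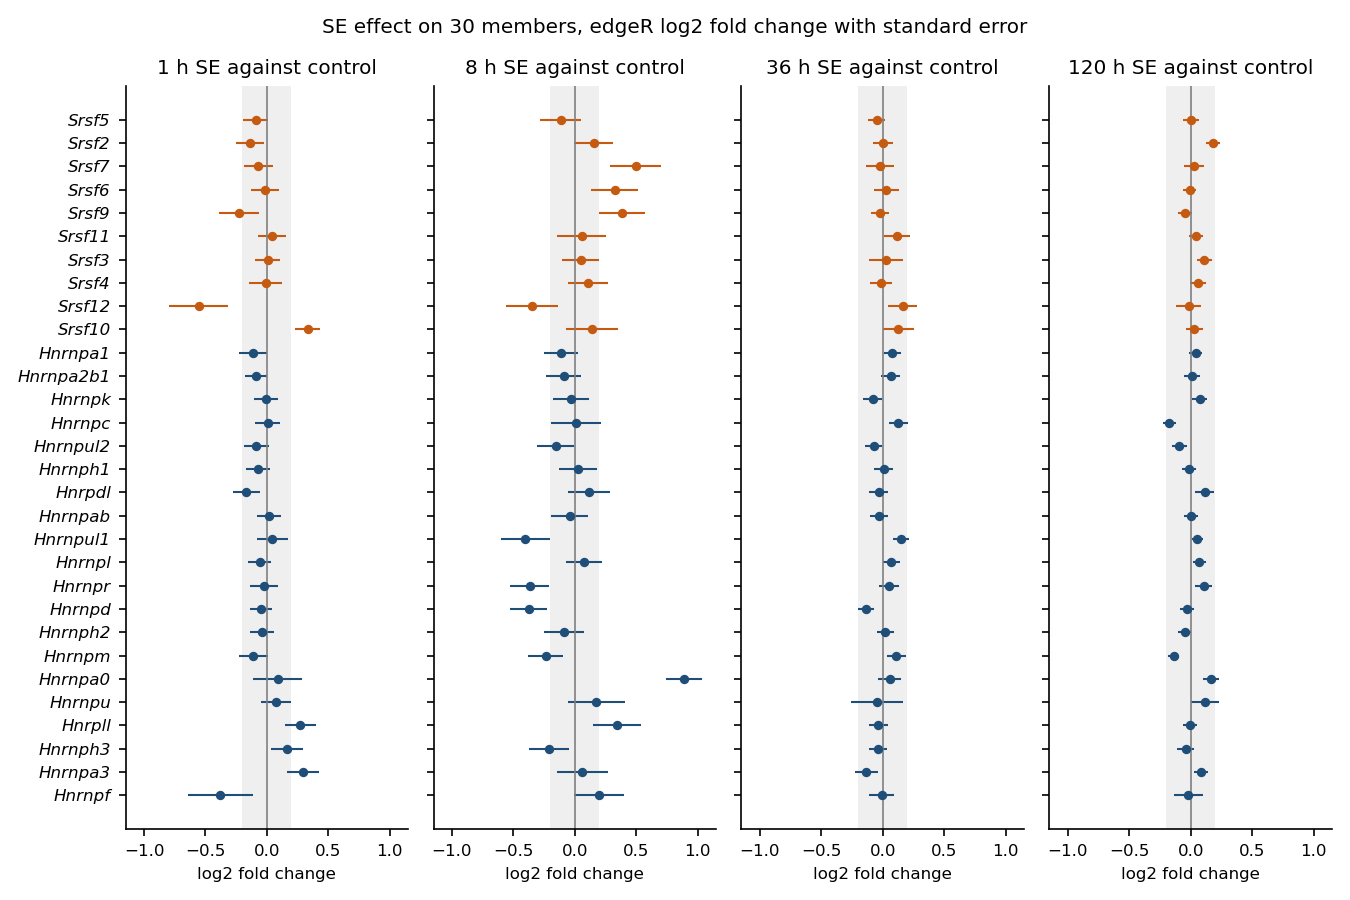
Log2 fold change of SE against control with its standard error for 30 members at 4 times, SR genes in orange and hnRNP genes in blue, each family in order of control level. The grey band marks changes within 0.2 of 0, which holds all 30 members at 36 h and 120 h, and Hnrnpa0 at 8 h lies farthest from 0 of all points.

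At 1 h after seizure onset, while SE lasts, the leading members were Srsf10, Srsf12, Hnrnpa3 and Hnrpll, and none passed the adjusted threshold. Srsf10, a splicing repressor when dephosphorylated, was at 96.4, 93.8 and 101 CPM in the SE mice and at 75.8 and 79.4 CPM in the controls. All 3 SE values lay above both controls, and the log2 fold change was 0.33 ± 0.10 (adjusted p = 0.967), the errors of fold changes being standard errors. Hnrnpa3, an RNA trafficking protein, was at 77.9, 89.9 and 103 CPM after SE against 73.2 and 74.3 CPM, with a log2 fold change of 0.30 ± 0.13 (adjusted p = 0.999). Hnrpll, known for the splicing of the leukocyte phosphatase gene Ptprc, was at 75.8, 90.7 and 91.5 CPM against 75.7 and 67.4 CPM, with a log2 fold change of 0.27 ± 0.13 (adjusted p = 0.999). For Hnrpll the lowest SE library and the higher control were almost equal. Srsf12, a relative of Srsf10, was at 34.7, 30.2 and 30.4 CPM after SE, and its controls were far apart at 60.9 and 33.0 CPM. Its log2 fold change was -0.56 ± 0.24 (adjusted p = 0.999), and without 1h control replicate 1 it was -0.05. Groups did not overlap for 3 members that were higher after SE and 3 that were lower, which is 6 of 30 beside 18.7% of all genes. With batch as a covariate no member was called at 1 h, against 0.0799% of all genes, and the log2 fold change of Srsf10 was 0.34 ± 0.10 (adjusted p = 0.776, 0.405 to 1 over the alternatives).

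At 8 h after onset, when SE is over, Hnrnpa0 stood out. The gene codes for a protein that binds AU-rich elements of mRNA, and it is annotated as 1 exon of 2678 bases without introns on chromosome 13, from 58227240 to 58229917 (NCBIM37, minus strand). Hnrnpa0 was at 121 and 116 CPM in the SE mice and at 64.6, 62.5 and 65.9 CPM in the controls. Both SE libraries were thus far above all 3 controls, which lay close together, and the fold change was 1.85 (log2 0.89 ± 0.14, adjusted p = 0.23). With the same counts, the adjusted p of Hnrnpa0 was 0.00116 in the likelihood ratio test, in which 0.57% of all genes passed, and 0.000369 in DESeq2, in which 0.609% passed. Over 12 alternatives its log2 fold change at 8 h stayed between 0.85 and 0.93 and its adjusted p ran from 0.000369 to 0.992, the highest without 8h SE replicate 1. Hnrnpa0 passed in 6 of these 12 alternatives. Among them, the fit with batch as a covariate and the fit without 8h control replicate 1 rest on the same libraries.

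The level of Hnrnpa0 in the other groups gives the scale of this difference. In the 5 other control libraries the gene was at 58.1 to 71.1 CPM. It was at 54.3, 62.8 and 87.9 CPM in the 1h SE mice, so that the highest of these was above every control, and it was at 70.4, 71.2 and 57.5 CPM in the 36h SE mice. In the 120h SE mice it was at 76.0, 74.8 and 65.3 CPM, all above their controls at 64.6, 65.1 and 64.0 CPM. The highest value outside the 8h SE group was thus 87.9 CPM, below both 8h SE mice.

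**Figure D3:**
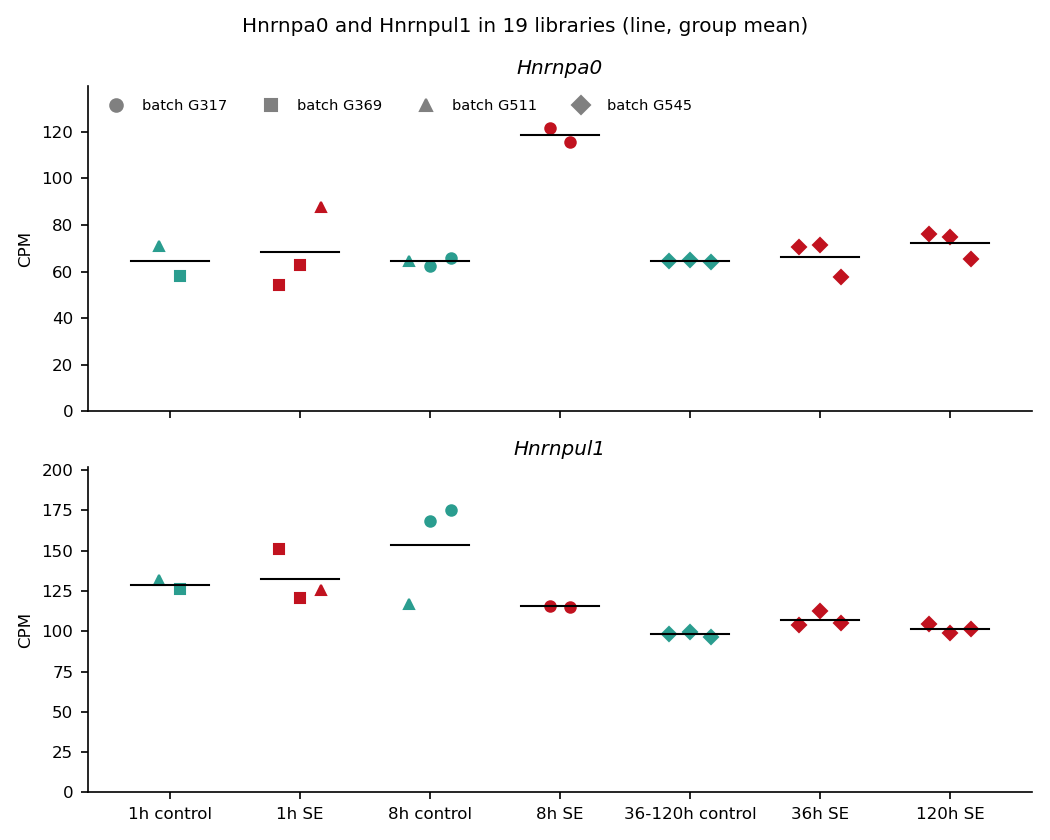
Hnrnpa0 and Hnrnpul1 in all 19 libraries, in CPM, with 1 point per mouse, green for control and red for SE, the marker shape giving the batch and the black line the group mean. The 2 mice of the 8h SE group have the highest Hnrnpa0 of all, and 8h control replicates 2 and 3 have the highest Hnrnpul1.

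After Hnrnpa0, the leading members at 8 h were Hnrnpd, Srsf7 and Hnrnpr. Hnrnpd, which binds AU-rich elements and promotes mRNA decay, was at 97.3 and 112 CPM after SE and at 141, 131 and 138 CPM in the controls (log2 -0.37 ± 0.15, adjusted p = 0.505). Hnrnpr, linked to the transport of actin mRNA in axons, was at 65.7 and 79.8 CPM against 101, 91.3 and 90.3 CPM (log2 -0.37 ± 0.16, adjusted p = 0.524). Both genes were lower in each SE library than in each control. Srsf7, which connects splicing with mRNA export, was at 94.2 and 77.2 CPM against 75.5, 50.1 and 57.3 CPM (log2 0.50 ± 0.21, adjusted p = 0.511). Here the SE values were again above all controls, by little for the second SE library and control replicate 1. In all, groups did not overlap for 5 members that were higher after SE and 7 that were lower, which is 12 of 30, beside 27.7% of all genes. Higher were Hnrnpa0, Srsf7, Srsf9, Hnrpll and Hnrnpl, and lower were Hnrnpd, Hnrnpr, Hnrnpul1, Hnrnpm, Hnrnph3, Hnrnpa1 and Hnrnpa2b1. The SR genes had a median log2 fold change of 0.12 and the hnRNP genes of -0.04.

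Control replicate 1 of 8 h, the library of the other batch, differed from control replicates 2 and 3 in many members. It was higher than their mean by over 1.2 times in 12 of 30 members and lower by as much in 1, Hnrnpul1. The largest ratios were those of Hnrnpu, a scaffold attachment factor, at 147 CPM against 90.9 and 96.1 CPM, and of Srsf10 at 71.7 CPM against 52.2 and 45.8 CPM. A fit with batch as a covariate takes the SE effect at 8 h from batch G317, that is from 2 SE and 2 control libraries. In it 5 members passed, 4 higher and 1 lower. The 4 that were higher are 13.3% of the members tested, beside 5.98% of all genes, and the 1 that was lower is 3.33%, beside 7.54% of all genes. Leaving out control replicate 1 gave the same 5 members. It was the only library of its batch at 8 h, so both fits take the SE effect from the same libraries. The agreement is therefore no second check.

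With batch in the model Hnrnpa0 was again 1.85-fold higher (log2 0.89 ± 0.11, adjusted p = 0.000655). Srsf7 was 1.6-fold higher (log2 0.68 ± 0.14, adjusted p = 0.00837, over the alternatives 0.00837 to 1). Srsf6, an SR protein of exonic enhancers, was at 118 and 135 CPM after SE and at 88.3 and 89.8 CPM in the controls of the same batch. The difference was 1.43-fold (log2 0.52 ± 0.11, adjusted p = 0.0101, over the alternatives 0.0101 to 1), and control replicate 1, at 126 CPM, lay between the SE values. Hnrpll was at 72.9 and 76.7 CPM against 49.4 and 55.3 CPM, a 1.44-fold difference (log2 0.52 ± 0.12, adjusted p = 0.0165, over the alternatives 0.0165 to 1). Control replicate 1 of Hnrpll, at 72.7 CPM, was level with the lower SE value. Hnrnpul1, an hnRNP U-like protein with a part in DNA repair, was 1.48-fold lower at 116 and 115 CPM against 168 and 175 CPM (log2 -0.57 ± 0.11, adjusted p = 0.00577, over the alternatives 0.00577 to 1). Its control replicate 1 was at 117 CPM, next to the SE values, and both controls of batch G317 were above all other libraries of the series, which ranged from 96.5 to 151 CPM. In Hnrnpa0 the control of the other batch thus lay with the other controls, and in the remaining 4 genes it lay nearer to the SE values. Just outside the threshold were Srsf9 (log2 0.50, adjusted p = 0.0505), Hnrnpu (log2 0.43, adjusted p = 0.0513) and Hnrnpd (log2 -0.35, adjusted p = 0.0607).

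**Figure D4:**
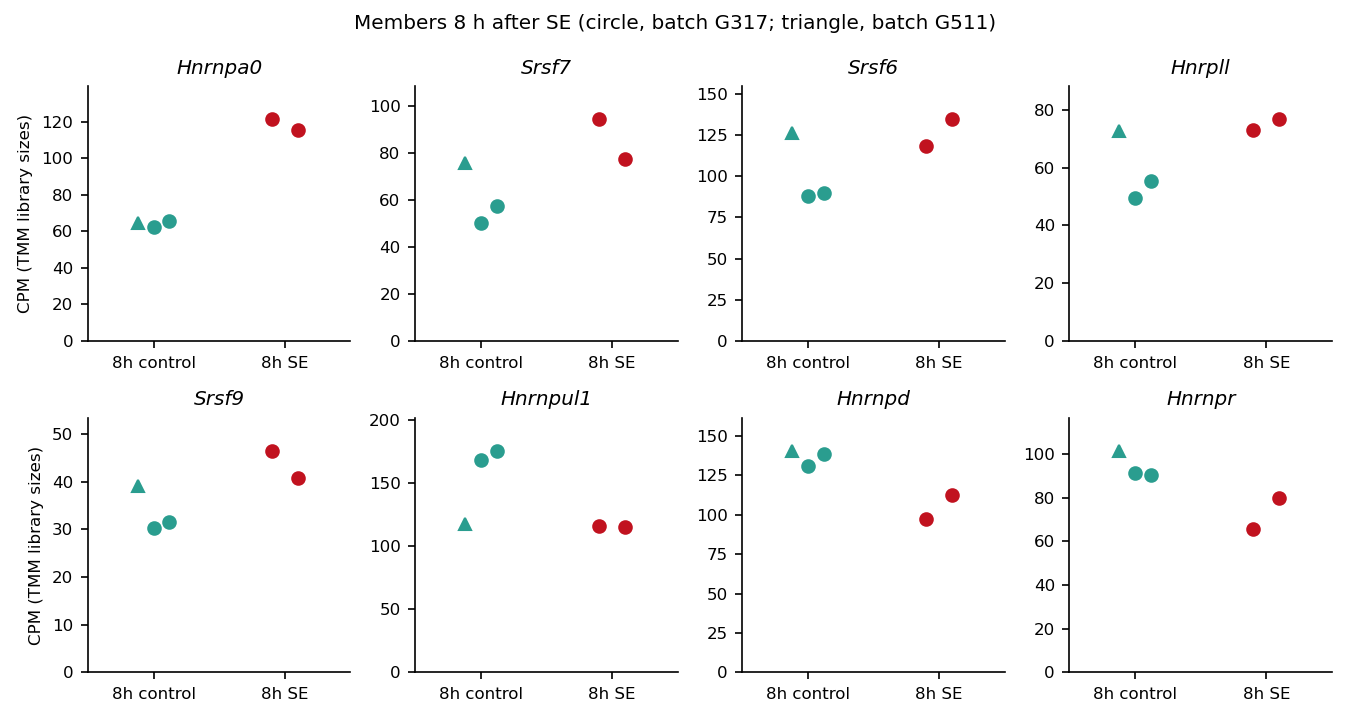
CPM of 8 members in the 5 libraries of 8 h, controls in green and SE in red, circles for batch G317 and the triangle for the single library of batch G511. Hnrnpa0 is at 121 and 116 CPM after SE against 62.5 to 65.9 CPM, and for Srsf6, Hnrpll and Hnrnpul1 the triangle lies with the SE libraries.

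**Figure D5:**
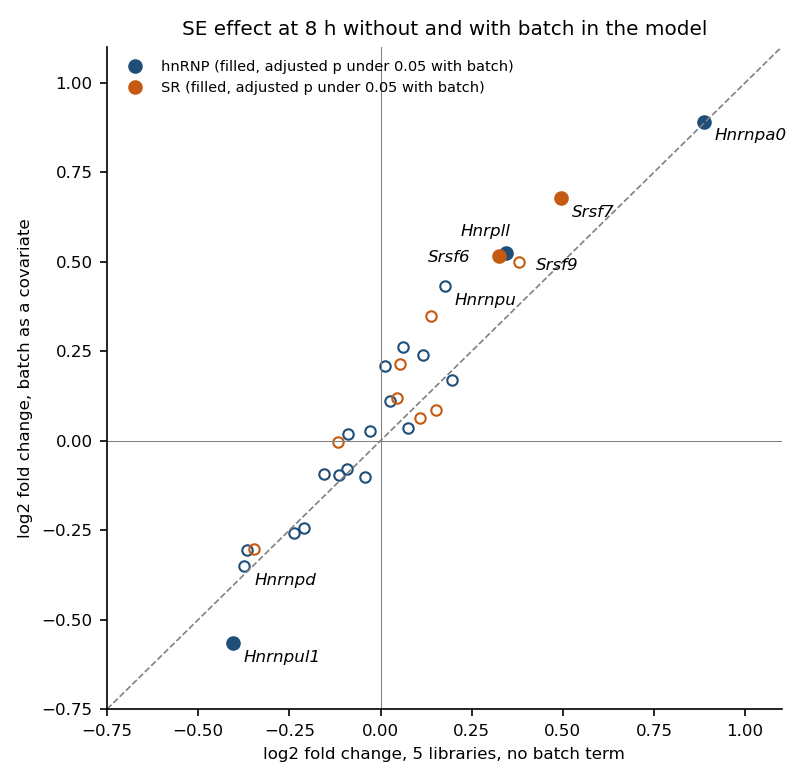
Log2 fold change of 30 members at 8 h without a batch term (x axis) and with batch as a covariate (y axis), filled points for the 5 members that passed with batch and a dashed line where both are equal. Hnrnpa0 lies on the line at 0.89, and Srsf7, Srsf6 and Hnrpll lie above it.

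Cell type markers were not level between the 8-h groups. The 6 neuron markers summed to 8617 and 9205 CPM in the SE mice and to 9786 to 14228 CPM in the controls, and the 5 microglia markers to 168 and 145 CPM against 189.6 to 216 CPM. The 5 oligodendrocyte markers summed to 5425 and 6680.4 CPM against 7132 to 8026 CPM. In these 3 lists the sums did not overlap between the groups, and no marker was at 0. Single markers did overlap, among them Syt1, Prox1 and Rbfox3 of neurons, Cx3cr1 of microglia and Mag of oligodendrocytes. Nuclear long noncoding RNAs summed to 2350.1 CPM in SE replicate 1 and 4211 CPM in SE replicate 2, against 2849 to 5028 CPM. The choroid plexus markers summed to 3079 and 3069 CPM in the SE mice. In control replicates 1, 2 and 3 they summed to 413, 3760 and 1288 CPM, so that the lowest value was in the library of the other batch. The part of these lists in the values of the members was not tested.

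The start regions of the members called with batch in the model are shown because these genes passed in the same fit. RefSeq promoters (GRCm38.p6, from 250 bases before to 50 after the start) were found for 29 of 31 members, all but Hnrpll and Hnrnpul2. Capitals mark TGACG (the core of the cAMP response element), CCAAT and GGGCGG (the GC box) on either strand, and each sequence is written 5′ to 3′ along the gene.
Hnrnpa0, chr13:58128507-58128806, minus strand: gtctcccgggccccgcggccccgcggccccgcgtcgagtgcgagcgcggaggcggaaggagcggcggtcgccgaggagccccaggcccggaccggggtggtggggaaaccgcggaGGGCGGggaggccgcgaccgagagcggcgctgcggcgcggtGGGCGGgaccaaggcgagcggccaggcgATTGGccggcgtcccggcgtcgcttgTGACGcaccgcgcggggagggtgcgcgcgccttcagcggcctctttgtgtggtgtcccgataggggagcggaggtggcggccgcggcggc
Srsf6, chr2:162931258-162931557, plus strand: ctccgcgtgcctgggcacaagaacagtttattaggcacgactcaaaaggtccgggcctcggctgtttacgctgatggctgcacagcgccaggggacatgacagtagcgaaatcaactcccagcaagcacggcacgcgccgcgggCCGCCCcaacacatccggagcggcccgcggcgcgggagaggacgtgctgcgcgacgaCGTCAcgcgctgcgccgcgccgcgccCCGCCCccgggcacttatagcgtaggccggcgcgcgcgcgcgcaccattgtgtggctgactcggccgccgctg
Srsf7, chr17:80207256-80207555, minus strand: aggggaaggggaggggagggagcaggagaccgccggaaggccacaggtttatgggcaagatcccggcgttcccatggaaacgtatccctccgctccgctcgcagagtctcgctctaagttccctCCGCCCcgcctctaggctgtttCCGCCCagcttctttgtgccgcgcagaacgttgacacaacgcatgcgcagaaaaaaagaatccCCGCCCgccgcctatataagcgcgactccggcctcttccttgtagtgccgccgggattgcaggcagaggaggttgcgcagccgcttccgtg
Hnrnpul1, chr7:25754710-25755009, minus strand: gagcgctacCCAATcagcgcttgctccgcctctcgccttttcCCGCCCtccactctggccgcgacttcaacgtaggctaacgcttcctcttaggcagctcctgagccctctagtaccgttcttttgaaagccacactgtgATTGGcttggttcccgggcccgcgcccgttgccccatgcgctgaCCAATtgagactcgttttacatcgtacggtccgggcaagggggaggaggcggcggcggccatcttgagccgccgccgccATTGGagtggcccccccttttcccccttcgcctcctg
Hnrnpa0 holds all 3 motifs in this window, Srsf6 holds TGACG and GGGCGG, Srsf7 holds GGGCGG alone, and Hnrnpul1 holds CCAAT 4 times and GGGCGG once. TGACG was found in the promoters of 18 of 29 members (62.1%) and of 23.0% of all 27025 genes of the table, CCAAT in 17 (58.6%) and 41.1%, and GGGCGG in 24 (82.8%) and 38.2%. The full response element TGACGTCA, which contains TGACG, was found in none of 29 members and in 2.0% of all genes. TATAAA was found in 4 members and 15.7% of all genes, and CACGTG in 5 members and 8.1% of all genes. Member promoters were rich in G and C, with a median of 68.3% over 41 start sites against 52.7% over 32851, and matches of this kind describe the letters only.

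At 36 h, in the latent period, all 30 members lay within 0.2 of 0. Hnrnpul1 was at 104, 113 and 105 CPM after SE and at 98.3, 99.5 and 96.5 CPM in the controls (log2 0.15 ± 0.07, adjusted p = 0.648). Hnrnpd was at 101, 107 and 105 CPM against 115, 122 and 113 CPM (log2 -0.14 ± 0.07, adjusted p = 0.662). In both genes the groups did not overlap, and the differences were small beside the level. Hnrnpc, a U-tract binding protein of nascent transcripts, was at 237, 224 and 213 CPM against 200.2, 208 and 217 CPM (log2 0.13 ± 0.07, adjusted p = 0.727). Hnrnpm, a splicing regulator of growth factor receptor exons, was at 144, 124 and 129 CPM against 119, 128 and 127 CPM (log2 0.11 ± 0.08, adjusted p = 0.781). These last groups overlapped. Without overlap were 1 member that was higher and 3 that were lower, 4 of 30 beside 14.1% of all genes.

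The 3 libraries of 36h SE were not alike. Replicate 3, with low choroid plexus markers, had the lowest values of Hnrnpu (68.0 CPM, against 111 and 128 CPM in replicates 1 and 2), Srsf3 (84.0 against 126 and 123 CPM) and Hnrnpa3 (44.6 against 54.1 and 55.9 CPM). The controls, with choroid plexus markers as low as replicate 3, were at 86.2 to 119 CPM for Hnrnpu, 103 to 115 CPM for Srsf3 and 55.6 to 58.7 CPM for Hnrnpa3, so that replicate 3 was below them in all 3 genes. When the mean log2 CPM of the choroid plexus markers entered as a covariate, the log2 fold change was -0.53 ± 0.17 for Hnrnpu (adjusted p = 0.237), -0.31 ± 0.10 for Srsf3 (adjusted p = 0.232) and -0.31 ± 0.09 for Hnrnpa3 (adjusted p = 0.233). Over 15 alternatives the log2 fold change of Hnrnpu at 36 h ran from -0.66 to 0.18 (adjusted p from 0.144 to 1), so that its direction turned with the libraries used. The fit with the covariate compares mainly replicate 3 with the controls, and no member passed in it, with Xist as a covariate, or without any 1 library. In the fit as reported only 0.0252% of all genes passed at 36 h, so these counts say little about the members alone. Xist was low in all 36h SE mice and, among the controls, in replicate 1 alone (0.13 CPM). The fit with Xist therefore sets SE against that control and cannot decide. The oligodendrocyte markers also differed, with 4730.4 CPM in replicate 3 against 8804 and 7588 CPM in replicates 1 and 2. The 4 endothelium markers summed to 63.9 CPM in replicate 3, against 118 and 109 CPM in replicates 1 and 2 and 97.0 to 116 CPM in the controls. The astrocyte markers summed to 1872 to 2304 CPM in the 36h SE mice against 1362 to 1478.5 CPM in the controls. Slc1a3 alone of them went the other way. The neuron markers summed to 7767 to 8476 CPM against 8886 to 9004 CPM, and to 7977 to 8544 CPM in the 120h SE mice. In both SE groups single neuron markers overlapped with the controls, among them Nrgn and Prox1. The part of all these lists in the members' values was not tested.

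At 120 h, the leading members were Srsf2, Hnrnpc, Hnrnpm and Hnrnpa0. Srsf2, an SR protein of exon inclusion, was at 146, 146 and 130.2 CPM after SE and at 128, 124 and 121 CPM in the controls (log2 0.18 ± 0.05, adjusted p = 0.367). Hnrnpc was at 188, 186 and 178 CPM against 200.2, 208 and 217 CPM (log2 -0.18 ± 0.05, adjusted p = 0.373). Hnrnpm was at 114, 113 and 110.3 CPM against 119, 128 and 127 CPM (log2 -0.14 ± 0.05, adjusted p = 0.427). In all 3 genes the SE and control values did not overlap. For Hnrnpa0, given above in each library, the log2 fold change was 0.16 ± 0.06 (adjusted p = 0.466). Groups did not overlap for 3 members that were higher and 3 that were lower, 6 of 30 beside 15.5% of all genes. No member passed with the choroid plexus markers or Xist as a covariate, or without any 1 library, SE replicate 3 with its high choroid plexus markers included. In the fit as reported only 0.0563% of all genes passed at 120 h, so these counts say little about the members alone. The controls are those also used at 36 h, so the values of Hnrnpc and Hnrnpm at both times are set against the same 3 mice. The labels differ on the time of these controls, with 36-120 hour in the source names and t0 in the titles.

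Whether the SE effect differed between neighbouring times was tested in 1 model of 7 groups over 19 libraries. No member passed from 1 h to 8 h, from 8 h to 36 h or from 36 h to 120 h, where 0.149%, 0.144% and 0.0804% of all genes passed. Unadjusted p values under 0.05 were reached by 6, 7 and 2 of 30 members, beside 12.3%, 14.1% and 4.21% of all genes. Hnrnpa0 led the first contrast with a difference in log2 fold change of 0.81 ± 0.22 (adjusted p = 0.169) and the second with -0.86 ± 0.21 (adjusted p = 0.0957). Hnrnpm led the third with -0.24 ± 0.09 (adjusted p = 0.908). With batch as a covariate, which was added after the data were seen, 4 members passed from 1 h to 8 h, beside 7.49% of all genes, and 7 passed from 8 h to 36 h, beside 13.7% of all genes. Since the 8-h effect is then taken from 4 libraries of batch G317, and both contrasts share them, the counts are not independent of each other or of the 8-h result.

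The other genes of the splicing apparatus were read in 5 lists. They hold 22 SR-related proteins, 10 SR protein kinases, 15 hnRNPs under other symbols, 21 tissue-specific splicing regulators and 36 core spliceosome genes, 104 genes in all, of which 103 were tested at 8 h. At 1 h, 8 h and 36 h none passed. Closest was Clk1, a kinase of SR proteins, at 1 h with a log2 fold change of -0.83 ± 0.11 (adjusted p = 0.0761). At 120 h 1 gene passed, Khdrbs3, a relative of the splicing regulator Khdrbs1, which was lower by a log2 fold change of -0.47 ± 0.05 (adjusted p = 0.0349). The medians of the lists at 8 h were -0.14 for SR-related proteins, -0.04 for the kinases, -0.03 for the other hnRNPs, -0.28 for the tissue-specific regulators and -0.12 for the core spliceosome, beside 0.04 for the members and -0.01 for all genes.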

How the data were processed

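The mRNA of 19 hippocampi was analysed. The authors prepared stranded poly(A) libraries, used HISAT2 2.1.0 to align the reads to NCBIM37 and made gene totals with HTSeq, and deposited raw counts per gene without normalization. The table holds identifiers outside the annotation used here, so counting may have used another annotation than the stated one, and the strand setting of HTSeq is not given in the sources used here. Gene names, positions and exon lengths were taken from GENCODE M1 for NCBIM37, which named 33068 of 43629 identifiers. Small RNA counts were not used here.

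For each time, its own SE and control libraries were filtered with filterByExpr, scaled by TMM and tested with the quasi-likelihood test of edgeR 4.0.16 (R 4.3.3). P values were adjusted by Benjamini-Hochberg over the whole table, and genes under 0.05 were called. Log2 CPM used a prior count of 1. The likelihood ratio test, which the authors used, DESeq2 1.42.0, RLE size factors, no filter, 1 model of 19 libraries, a replicate block, batch, choroid plexus and Xist covariates and leaving out single libraries were alternatives. The scripts were tested on simulated counts. Copies were searched with minimap2.

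The members and lists were chosen with earlier results of these data known. Described per library are members that pass in any of 7 contrasts and the 4 with the smallest p at each time. The 3 highest and 2 lowest by RPKM are given as mean and SD over the control libraries. Of the other lists, genes that pass are named, and otherwise the one with the smallest p. Further genes (Srsf6, Hnrpll, Hnrnpul1 and Srsf9 at 8 h, and Hnrnpu, Srsf3 and Hnrnpa3 at 36 h) were named after their values were seen.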

Additional observations from a re-analysis of the deposited data

Results flagged for a closer look

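With batch as a covariate in the model of all 19 libraries, the SE effect differed between times for some members (edgeR quasi-likelihood test, adjusted p under 0.05). No member did so in the test as reported, which has no batch term. Other fits without that term did call members and are given below. From 8 h to 36 h the difference in log2 fold change was -0.86 for Hnrnpa0 (adjusted p = 0.0016), -0.73 for Srsf7 (0.0147), -0.59 for Hnrpll (0.00708), -0.55 for Srsf9 (0.0207), -0.52 for Srsf6 (0.0259), 0.68 for Hnrnpul1 (0.00237) and 0.34 for Hnrnpm (0.048). From 1 h to 8 h it was 0.75 for Hnrnpa0 (0.01), 0.73 for Srsf7 (0.0303), 0.69 for Srsf9 (0.0146) and -0.6 for Hnrnpul1 (0.0146). Each of these differences takes the 8-h effect from 2 SE and 2 control mice of batch G317. For Srsf7, Srsf6, Hnrpll and Hnrnpul1 the remaining control of that time, of batch G511, lay nearer to the SE libraries than the other controls did, as given above, and for Hnrnpa0 it lay with the other controls. No group has more than 3 libraries, so single libraries were not screened for outliers.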

How the results depend on the processing

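No member passed in the tests as reported, at 4 times and in 3 contrasts between times. At 36 h, at 120 h and between 36 h and 120 h that held under every alternative run. Few genes of the whole table passed there in the tests as reported (0.0252%, 0.0563% and 0.0804%). Beside each count below stands the share of all genes that passed in that fit. At 1 h 1 member passed without a filter on low counts (Srsf12; 1.35% of all genes). At 8 h the count was 1 in the likelihood ratio test (0.57%), in DESeq2 (0.609%) and without a filter (1.41%), Hnrnpa0 each time, and 2 with all 19 libraries in 1 model (Hnrnpa0 and Hnrnpd; 2.43%). It was 5 with batch as a covariate (13.5%), and 0 to 5 when single libraries were left out, 5 being without 8h control replicate 1 (13.4%). The fits that called 5 members at 8 h take the SE effect from the same libraries. From 1 h to 8 h the count was 1 in DESeq2 (1.36%) and without a filter (1.76%), Hnrnpa0 in both, and 4 with batch as a covariate (7.49%). It was 0 to 5 when single libraries were left out, with 5 without 8h control replicate 1 (6.8%), 1 without 1h control replicate 2 (Hnrnpf; 1.6%) and 1 without 1h SE replicate 3 (Hnrnpa0; 0.092%). From 8 h to 36 h it was 1 in the likelihood ratio test (1.14%), in DESeq2 (1.76%) and without a filter (2.73%), Hnrnpa0 each time, and 7 with batch as a covariate (13.7%). It was 0 to 6 when single libraries were left out, 6 being without 8h control replicate 1 (11.4%). Among the other splicing genes, summed over 4 times, 1 passed as reported (0.0408%) and 3 in the likelihood ratio test (0.563%). The cause of these differences between tests was not tested. Where 1 library was left in an arm, it was assumed to vary like the other groups.

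The labels number the replicates, and the deviations of same-numbered mice had correlations from -0.244 to 0.208. With so few mice per group these values cannot settle whether the numbers pair samples. The tests as reported used no pairing. With the replicate block no member passed at any time (0). At 1 h and 8 h only replicates 1 and 2 are in both groups, which leaves little to estimate the spread from. That count is therefore no check on the tests without the block. The 30 tested members had at least 154 counts in each library.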

Other observations

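The 8-h fit with batch as a covariate also moved other genes of splicing. Of 103 tested genes in the 5 lists, 7 were higher and 20 lower, beside 5.98% and 7.54% of all genes. Core spliceosome genes made up 3 of the higher and 8 of the lower genes. They went in both directions among the Sm protein genes and among the branch site genes. Lower were the Sm protein genes Snrpd1 (log2 -1.21 ± 0.16, adjusted p = 0.000902), Snrpf (-1.32 ± 0.21, adjusted p = 0.00242) and Snrpd3 (-0.78 ± 0.16, adjusted p = 0.00944), while Snrpb, another Sm protein gene, was higher (0.59 ± 0.15, adjusted p = 0.0265). The U1 small nuclear ribonucleoprotein genes Snrpa (-0.98 ± 0.13, adjusted p = 0.0011) and Snrpc (-0.73 ± 0.18, adjusted p = 0.0186) were lower. Of the genes of branch site recognition, Sf3a2 (-1.36 ± 0.16, adjusted p = 0.000458), Sf3b4 (-1.003 ± 0.17, adjusted p = 0.00298) and Sf1 (-0.54 ± 0.12, adjusted p = 0.0116) were lower, and Sf3b1 (0.76 ± 0.11, adjusted p = 0.00187) and Sf3b3 (0.44 ± 0.10, adjusted p = 0.0162) were higher. Among the tissue-specific regulators 7 were lower, the neuronal Celf5, Celf3, Celf4, Nova2, Elavl4, Elavl3 and Rbfox3, with log2 fold changes from -0.82 to -0.46, and Celf1 was higher (0.41 ± 0.11, adjusted p = 0.028). The sum of the 6 neuron markers was lower in the same SE libraries, and Rbfox3 is itself one of the 6. Of the 6, Snap25, Camk2a, Nrgn and Rbfox3 were lower in each SE library than in each control of batch G317. Snap25 was at 1908 and 2162 CPM after SE against 3265 and 3738 CPM. Prox1, at 94.3 and 130 CPM against 95.7 and 113 CPM, and Syt1 overlapped. The part of the neuron markers in the values of these genes was not tested. The splicing genes above were named after their values were seen, and the values rest on 2 mice against 2. In the test as reported, without batch in the model, none of these splicing genes passed.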
